A study of Rattus norvegicus with 12 samples.

Results

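Liver gene expression was compared between rats fed a diet with 1% wakame powder and rats fed the same diet without it. The comparison used 8 of the 12 arrays of the study, 4 per diet, chosen by the diet named for each array, and the 4 arrays of a diet with 0.1% wakame powder served as a reference point. All were male Sprague Dawley rats, labelled as 9 weeks old, and had eaten their diets for 28 days. The control diet was a purified AIN-93G type diet with 7% fat and 20% casein, and both wakame diets were this diet with the powder added. Each diet had 6 rats, with 3 sharing a cage. Effects of the diet and of the cage therefore cannot be told apart. The rats had free access to drinking water and lived under a light and dark cycle, and the clock time at which livers were excised is not given in the sources used here. Each array is labelled as a biological replicate and was hybridised with liver RNA on an Affymetrix rat array, on which a probe set is a group of short probes aimed at 1 transcript.

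Wakame is an edible brown seaweed that contains fucoxanthin, alginate, iodine and minerals. The liver makes fatty acids, cholesterol and bile acids, and it switches these pathways with feeding, hormones and the time of day. Transcription factors carry much of this control. Rev-erb alpha, encoded by Nr1d1, is a heme-binding repressor of the clock, and Bcl6 is a zinc finger repressor that in liver acts on growth hormone and fatty acid genes. Onecut1, also called HNF6, is a hepatocyte factor controlled by growth hormone. Nr5a2, or LRH-1, acts on genes of bile acid and cholesterol handling.

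Of the 31042 probe sets that are not manufacturer's controls, 27802 (89.6%) had next to no spread across the 12 arrays and were counted as unmeasured. The remaining 3240 varied, and those with 1 gene symbol stood for 2301 genes. Values are log2 units on the deposited scale, with a median of 8.98 over the varying probe sets. Arrays of 1 diet correlated at 0.911 or higher. The Gapdh signal at the 3-prime end minus that at the 5-prime end, a measure of RNA integrity, was 1.05 ± 0.01 in control rats and 1.21 ± 0.16 in 1% rats (SD, n = 4), with an exact two-sided permutation p of 0.143. It ranged from 1.04 to 1.07 in control rats and from 1.04 to 1.42 in 1% rats. The smallest p that 4 against 4 arrays can give is 0.0286.

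In the 1% rats, 54 of the 3240 varying probe sets (1.67%) changed at an adjusted p under 0.05, of which 28 rose (0.864%) and 26 fell (0.802%). They stood for 34 named genes, 16 that rose and 18 that fell, with 18 probe sets that have no symbol here and 1 that is listed under several. The sizes of the changes ran from 0.30 to 5.21 log2, with a median of 0.86, and 23 exceeded 1 log2. At an unadjusted p under 0.05 there were 599 probe sets (18.5%), 272 higher (8.4%) and 327 lower (10.1%). The diets did not overlap in 365 probe sets (11.3%), 169 higher (5.22%) and 196 lower (6.05%), and among these were all 54 that passed. Differences lay above 0 in 44.9% of varying probe sets and below 0 in 55.1%. Over genes, counted once each, 45.2% lay above 0 and 54.8% below, and 10.4% separated the diets. Calls were concentrated among dimmer probe sets: of 1080 probe sets each, 33 passed below a mean level of 8.27 (3.06%), 17 between 8.27 and 9.74 (1.57%) and 4 above 9.74 (0.37%).

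The count of 54 depended on single rats. It was 13, 8, 33 and 9 without control rat 1, 2, 3 or 4 in turn, and 7, 34 and 11 without 1% rat 2, 3 or 4, and it was 28 without the first 0.1% rat, whose array helps to set the spread. With the Gapdh 3-prime minus 5-prime difference as a covariate, 4 probe sets passed. Some differences grew: Bcl6 was at 5.57 log2 against 5.21 without the covariate, Onecut1 at −3.27 against −3.17 and Socs2 at −1.43 against −1.33. Others shrank: Hacl1 was at 1.19 log2 against 1.62, Nr1d1 at 1.73 against 1.98 and Krcc1 at −0.35 against −0.47. In the 8 fits that each left out 1 control or 1% array, 6 probe sets passed every time, 4 of them without a symbol, and the named ones were Hycc2 and Asap2. With the covariate Hycc2 still passed and Asap2 did not (limma adjusted p = 0.0983). All 54 kept their sign in those fits, while 11 passed in none of them. Nr1d1 and Onecut1 lost their calls without control rat 1, 2 or 4 or 1% rat 2 or 4, and Baiap2 without control rat 1, 2 or 4 or 1% rat 2. Rsrp1 lost its call without control rat 1 or 4 or 1% rat 2 or 4. Apart from Ablim3 and Bcl6, described with their values, the other named genes passed in at most 2 of the 8 fits. In bulk liver RNA, fewer cells of a type and less RNA per cell cannot be told apart.

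**Figure D1:**
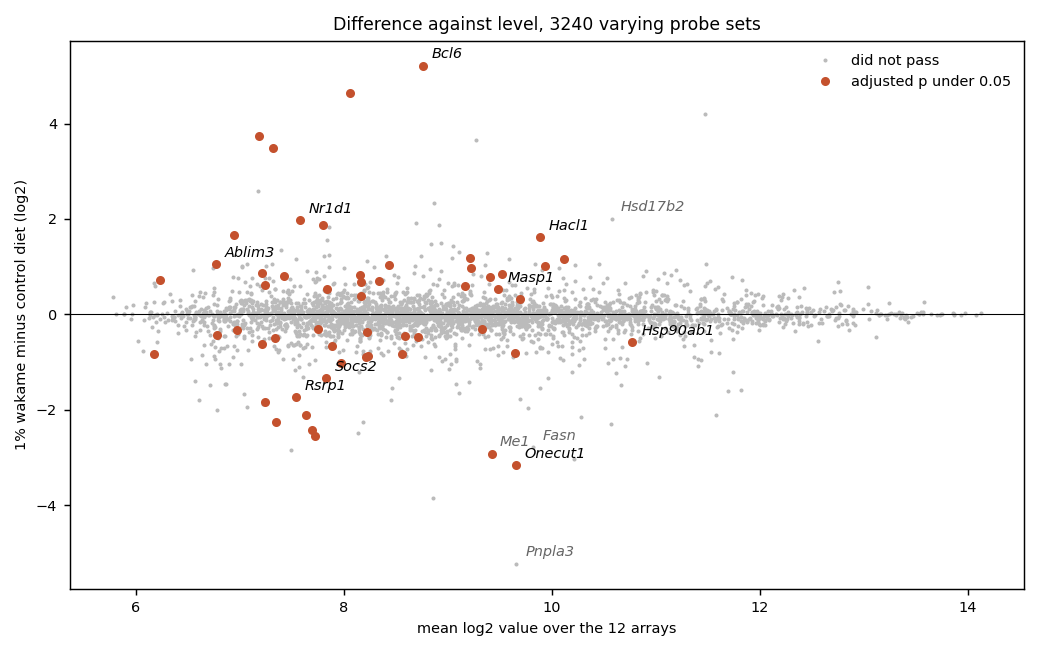
Difference between 1% wakame and control diet (log2) for each of the 3240 varying probe sets against its mean log2 value over the 12 arrays. Red points passed at an adjusted p under 0.05, and grey labels name genes that did not pass. Of the calls, 4 lie above a mean value of 9.74, and Pnpla3, with a difference of −5.22, did not pass.

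Transcription regulators held the largest changes among named genes. Bcl6 had log2 values of 6.34, 6.72, 5.57 and 6.26 in control rats and of 10.22, 12.02, 12.12 and 11.38 in 1% rats. The lowest 1% rat stood well above the highest control rat. The rise was 5.21 ± 0.77 log2 (SE, n = 4 per diet; limma adjusted p = 0.0152). Its control mean of 6.22 lay below the median of the whole table, 6.59, so its control level may not be above background and no linear fold is given. The control mean lay below this median in 8 of the 28 probe sets that rose, those of Bcl6, Ablim3 and Nr1d1 among them. In 0.1% rats, Bcl6 was at 7.11, 7.06, 10.18 and 10.13, so 2 rats lay near control and 2 near the 1% group. The call was lost without control rat 4 or 1% rat 2, with adjusted p up to 0.0761.

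Onecut1 moved the other way on both of its varying probe sets. The brighter one read 10.97, 11.07, 10.91 and 12.23 in control rats and 9.48, 7.66, 7.23 and 8.15 in 1% rats. It fell by 3.17 ± 0.54 log2 (adjusted p = 0.0268), with no overlap between the diets, and the first 1% rat was the least lowered. The other probe set fell by 2.10 log2. In 0.1% rats the brighter probe set was at 9.82, 10.53, 8.63 and 9.18.

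Socs2, which encodes a feedback inhibitor of the growth hormone receptor, read 8.42, 7.89, 8.28 and 8.76 in control rats and 7.44, 6.92, 7.04 and 6.64 in 1% rats. It fell by 1.33 ± 0.27 log2 (adjusted p = 0.0472). Its mean in 0.1% rats differed from control by −0.19 log2. Of 18 varying genes of the growth hormone and insulin-like growth factor list, Bcl6 rose, Onecut1 and Socs2 fell and no other member passed, where 1.17% of all varying genes passed. This list was written with earlier results of these data known, so its count is a description. Members with small differences that did not pass included Igf1 with −0.10 log2, the receptor gene Ghr with −0.27 and the male-specific P450 gene Cyp2c11 with 0.02. Larger differences that did not pass were those of the P450 gene Cyp2c12, −1.59 log2, and of Igfbp1, 1.28 log2, both with overlap between the diets. The related signal inhibitor Cish differed by −0.75 log2 and did not pass.

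Nr1d1 read 6.35, 6.48, 6.91 and 6.31 in control rats and 8.47, 9.21, 8.04 and 8.26 in 1% rats. The rise was 1.98 ± 0.33 log2 (adjusted p = 0.0262), with every 1% rat above every control rat. Nr1d1 was the only one of 19 varying genes on the clock list to pass, where 1.17% of all varying genes passed. Its close relative Nr1d2 was higher by 1.01 ± 0.25 log2 and the repressor gene Cry1 was lower by 0.64 log2, both with no overlap and neither passing. Dbp, an output gene of the clock, read 5.96 to 6.26 in control rats and 6.81 to 7.28 in 1% rats, a difference of 0.93 log2 that did not pass. Its control values lay below the median of the whole table, 6.59, and may not be above background. Per2 and Per1 differed by 0.11 and 0.16 log2, and Clock by −0.07. In all, 9 of the 19 genes on this list separated the diets, 6 higher and 3 lower, against 10.4% of all varying genes. The list was written with earlier results of these data known, so its counts are a description. It also holds Por, Gys2 and Tspan4, which are not core clock genes, and Por, at 0.52 log2, is 1 of the 6.

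Among the nuclear receptor genes, Nr5a2 read 8.75 to 9.08 in control rats and 9.40 to 9.71 in 1% rats, and it rose by 0.60 ± 0.13 log2 (adjusted p = 0.0486). A second Nr5a2 probe set differed by only 0.07 log2. Of 13 varying genes in the nuclear receptor family, 9 were higher and 4 lower, with a median of 0.27 log2 against −0.02 over all 2301 genes. Nr1i3, the xenobiotic receptor CAR, was higher by 1.16 log2 with no overlap and did not pass. Nr0b2, or SHP, a repressor induced by bile acids, was higher by 1.49 log2 and did not pass. The thyroid hormone receptor gene Thrb differed by 0.30 log2. Of 10 varying genes of the thyroid hormone and iodine list, none passed, and the one at an unadjusted p under 0.05 was Me1, which was lower.

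The other regulators that changed were Foxp1, Jade1 and Smad1. Foxp1, a forkhead factor, read 7.66 to 7.95 in control rats and 8.41 to 8.88 in 1% rats, and it rose by 0.83 log2 (adjusted p = 0.0491). Its other varying probe sets differed by 0.70 and 0.44 log2 in the same direction, and the 0.1% mean differed from control by 0.07. Jade1, a subunit of a histone acetyltransferase complex, read 8.13, 8.70, 8.25 and 9.11 in control rats and 9.87, 9.39, 9.97 and 9.71 in 1% rats, a rise of 1.18 log2 (adjusted p = 0.0486). Its other varying probe set differed by 0.18 log2, with overlap between the diets. Smad1, which carries bone morphogenetic protein signals, fell by 0.30 log2 from a narrow control range of 9.44 to 9.53. The Wnt receptor gene Fzd1 read 8.97, 8.87, 8.53 and 8.45 in control rats and 7.91, 7.54, 8.20 and 7.62 in 1% rats, a fall of 0.89 log2 (adjusted p = 0.0361). Myc and Srebf1 differed by −1.17 and −1.07 log2, and Klf15 by 1.05, without passing.

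**Figure D2:**
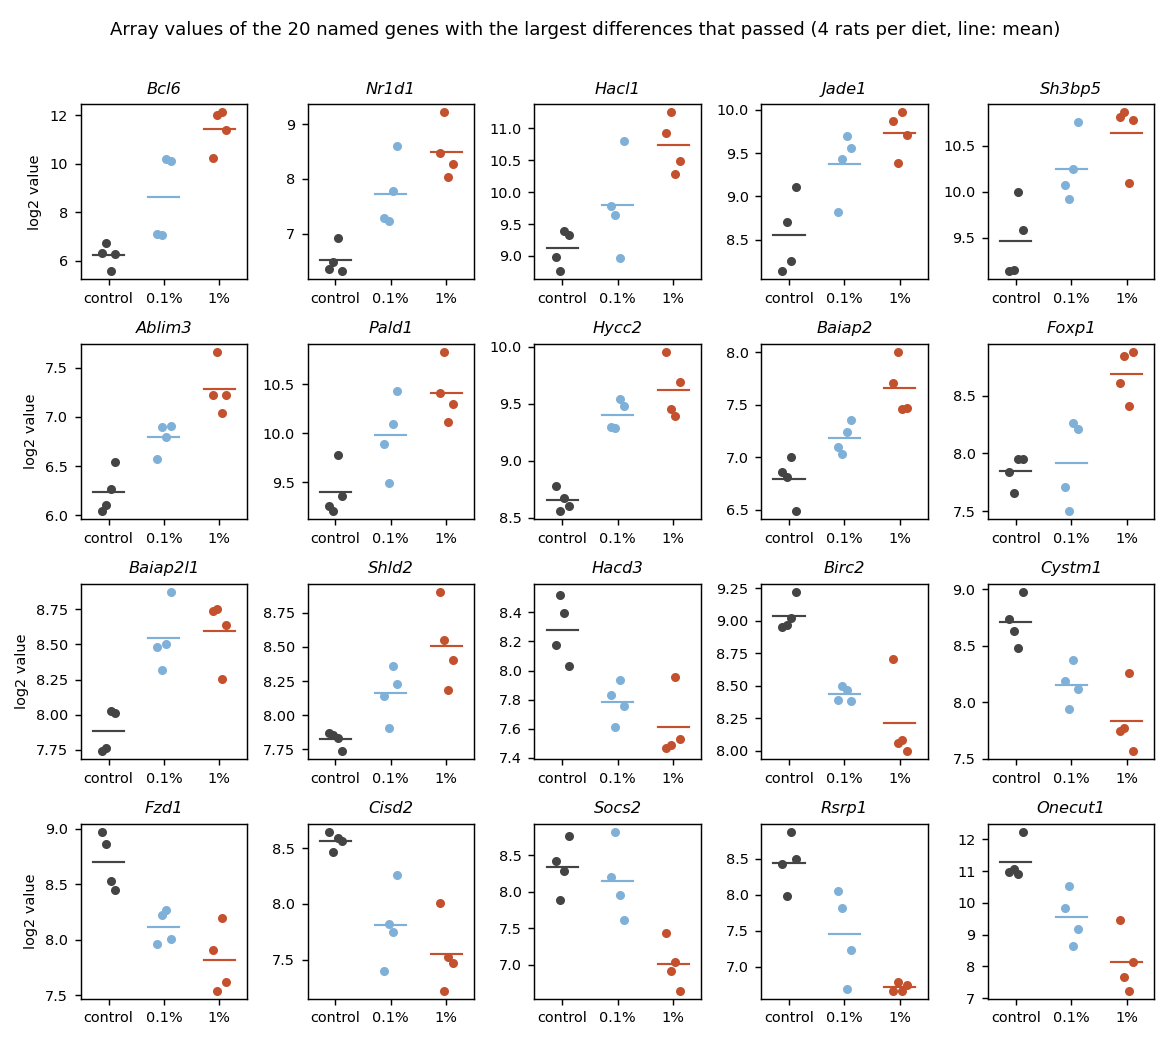
Log2 values on each array of the 20 named genes with the largest differences that passed, with 1 point per rat and a line at the mean of each diet. In every panel the 1% rats (red) and the control rats (black) do not overlap, while the 0.1% rats (blue) lie between them, with 1 group or across both.

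Promoter windows give the sequence context of these genes. Windows of 300 bases, from 250 before to 50 after the annotated start, were taken from RefSeq on GRCr8 for 31 of the 34 genes that changed, while Onecut1, Rsrp1 and Socs2 had no entry. The E-box CACGTG, the site bound by clock and related factors, was in 3 of the 31 (9.68%), in Bcl6, Hycc2 and Hacd3, against 6.65% of 27457 genes. The windows of Bcl6 at chr11:90358503-90358802 on the plus strand and of Hycc2 at chr9:67623248-67623547 on the minus strand are shown as the largest and the most stable rise, with the E-box in capitals. It starts at −197 in Bcl6 and at −39 in Hycc2, counted from the annotated start.
Bcl6: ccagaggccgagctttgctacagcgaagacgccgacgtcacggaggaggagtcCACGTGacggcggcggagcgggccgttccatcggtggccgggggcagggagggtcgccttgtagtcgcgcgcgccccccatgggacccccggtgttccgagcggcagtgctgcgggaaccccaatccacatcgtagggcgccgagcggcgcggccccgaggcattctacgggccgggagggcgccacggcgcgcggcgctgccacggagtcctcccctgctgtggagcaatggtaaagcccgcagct
Hycc2: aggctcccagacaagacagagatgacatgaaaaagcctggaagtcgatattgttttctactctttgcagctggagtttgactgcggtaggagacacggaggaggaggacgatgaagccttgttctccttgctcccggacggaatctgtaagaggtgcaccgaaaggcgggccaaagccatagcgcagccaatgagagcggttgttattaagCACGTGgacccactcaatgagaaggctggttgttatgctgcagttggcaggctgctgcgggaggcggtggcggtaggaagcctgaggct
The D-box TTANGNAA was in 4 of the 31 windows (12.9%; Birc2, Hacl1, Jade1 and Nr5a2) against 11.4%, and the STAT site TTCNNNGAA in 2 (6.45%; Cystm1 and Psmc6) against 8.68%. Both strands were searched. A match is a run of letters and not a shown binding site.

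The list drawn up for the actin cytoskeleton, junctions and adhesion was the second group with several changes: 5 of its 30 varying members rose and 1 fell, against 1.17% of all varying genes. This list was written with these calls already known, so its count is a description. The 5 include Pald1, whose protein is not an actin or junction protein, and the 1 that fell is Asap2. Tpm1 also passed, but not on the probe set used for the list, so it is not in this count. Ablim3, which encodes an actin-binding LIM protein, read 6.04, 6.11, 6.26 and 6.54 in control rats and 7.22, 7.66, 7.04 and 7.23 in 1% rats. It rose by 1.05 ± 0.15 log2 (adjusted p = 0.0139), with 0.1% rats between the 2 groups at 6.57 to 6.91. The call was lost without control rat 2, with an adjusted p of 0.0564.

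Baiap2 and Baiap2l1, whose proteins bend membranes and link them to actin, both rose. Baiap2 went from 6.49 to 7.00 in control rats to 7.46 to 8.00 in 1% rats, a rise of 0.87 log2 (adjusted p = 0.0268). Baiap2l1 rose by 0.71 log2. Pald1, named here with this list, rose by 1.01 log2, but its protein, paladin, is a phosphatase-domain protein and not an actin or junction protein. Cgnl1, which encodes the junction protein paracingulin, rose by 0.32 log2, from 9.50 to 9.61 in control rats to 9.80 to 9.95 in 1% rats. Asap2, an activator of ARF GTPase turnover, fell by 0.45 ± 0.06 log2 (adjusted p = 0.0106). Its control values were 8.81, 8.95, 8.81 and 8.85 and its 1% values 8.33, 8.45, 8.47 and 8.38, with no overlap. Tpm1, a tropomyosin, fell by 0.33 log2 on 1 probe set, while another varying probe set of it differed by 0.03.

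The other members of the list went in both directions without passing. The tubulin genes Tubb2a and Tubb4b differed by −1.01 and −0.94 log2, the actin gene Actg1 by −0.66 and the tight junction gene Cldn1 by 0.98. The median over the 30 members was −0.03 log2, and quantile normalization turned it to 0.03.

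Lipid genes gave several of the largest differences that did not pass. All 13 varying genes of the fatty acid synthase chain and elongation list were lower in 1% rats, with a median of −0.245 log2, against 54.8% of all varying genes that were lower. Of these, 4 had an unadjusted p under 0.05, where 9.52% of all varying genes were lower at that p, and none passed on the probe set used for the list. Along the pathway, the citrate carrier gene Slc25a1 differed by −0.22 log2, Acly, which makes cytosolic acetyl-CoA, by −2.10, and Me1, which supplies NADPH, by −1.96. Acaca, the first committed enzyme, differed by −0.79 log2, Fasn, the synthase itself, by −2.30, and the elongase gene Elovl6 by −2.25 ± 0.52. The desaturase gene Scd differed by only −0.16 log2.

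The rats varied widely for these genes. Elovl6 read 9.51, 10.46, 8.95 and 8.70 in control rats and 7.02, 6.21, 7.12 and 8.26 in 1% rats, with no overlap (adjusted p = 0.0605). Acly was at 12.30 to 13.50 in control rats and at 9.38, 9.42, 10.90 and 12.57 in 1% rats, so the fourth 1% rat lay within the control range. Pnpla3, which encodes a lipid droplet enzyme, read 12.40, 14.07, 11.09 and 11.96 in control rats and 5.59, 5.03, 8.28 and 9.74 in 1% rats. The difference of −5.22 ± 1.39 log2 did not pass (adjusted p = 0.0856). In 0.1% rats, 3 of the 4 Pnpla3 values were between 10.14 and 11.11 and 1 was at 5.53.

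Hacd3, a dehydratase of the elongation cycle, passed on its dimmer probe set. It read 8.17, 8.51, 8.40 and 8.03 in control rats and 7.47, 7.49, 7.95 and 7.53 in 1% rats, and it fell by 0.67 log2 (adjusted p = 0.0485). Its brighter probe set differed by −0.40 log2. Pank3, which starts coenzyme A synthesis, fell by 0.63 log2 on 1 probe set, while a brighter one differed by −0.02. In triglyceride assembly, the acyltransferase gene Gpam differed by −0.55 log2, Lpin1 by 1.04 and Dgat2 by 0.12, and none passed.

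Of 16 varying genes of the mevalonate and sterol pathway, 15 were lower, with a median of −0.56 log2. None passed, and 3 had an unadjusted p under 0.05, where 9.52% of all varying genes were lower at that p and 17.8% differed in either direction. In reaction order, Pmvk differed by −0.73 ± 0.21 log2, Idi1 by −0.73, Fdps by −0.93, the squalene epoxidase gene Sqle by −0.66, Lss by −0.50, Cyp51 by −0.50 and Dhcr7 by −0.69. Pmvk was at 9.16 to 9.68 in control rats and at 8.39 to 9.10 in 1% rats, with no overlap. Fdps was at 11.79 to 12.07 in control rats and at 10.34, 10.36, 11.45 and 11.85 in 1% rats, so 2 rats stood far below the control range and 1 lay within it. With the Gapdh 3-prime minus 5-prime difference as a covariate, the median of the list was −0.30 log2.

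**Figure D3:**
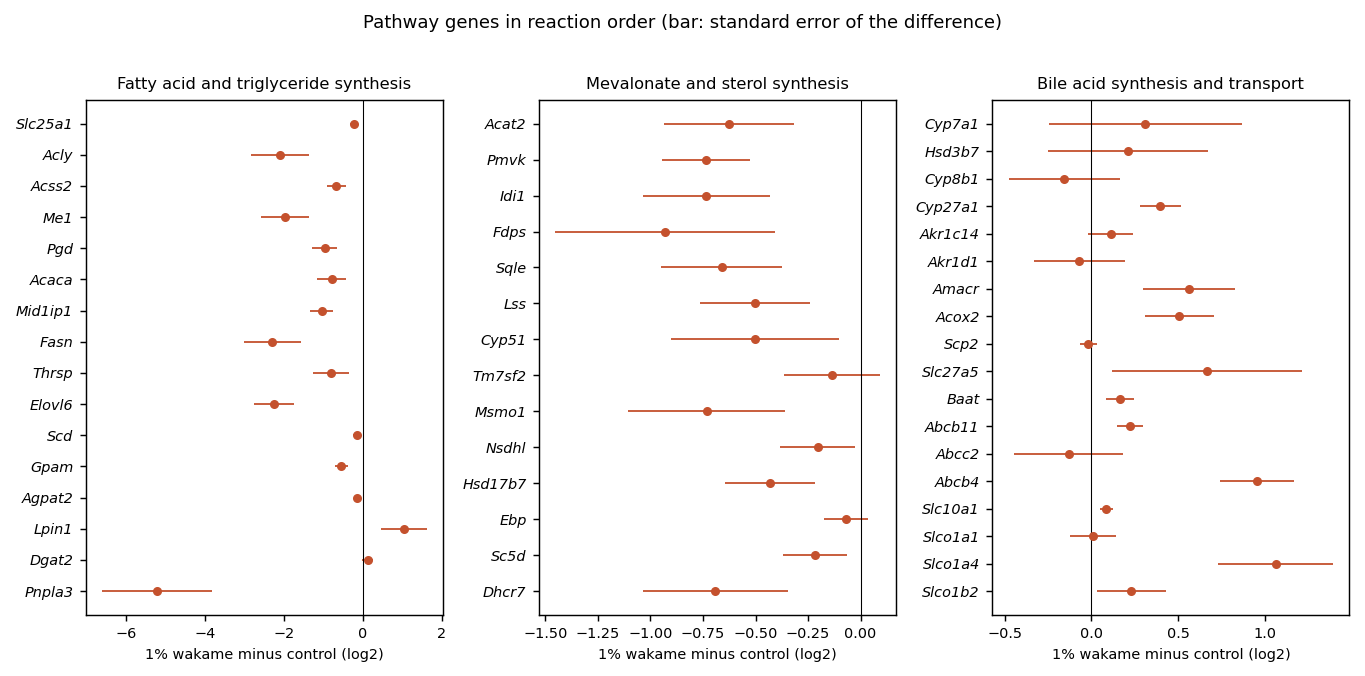
Difference between 1% wakame and control diet (log2) for varying genes of 3 lipid pathways in reaction order, with bars for the standard error; the axes differ between panels. Fatty acid and sterol genes lie mostly left of 0 and bile acid genes mostly right of 0, and no gene drawn passed at an adjusted p under 0.05.

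Bile acid genes lay on the other side. Of 20 varying members, 16 were higher and 4 lower, with a median of 0.22 log2, and 7 had an unadjusted p under 0.05, all of them higher, against 8.3% of varying genes. None passed. The phospholipid export pump gene Abcb4 came closest, at 8.19, 8.11, 8.60 and 8.07 in control rats and 9.32, 9.76, 9.10 and 8.61 in 1% rats. The difference was 0.96 ± 0.21 log2 (adjusted p = 0.0579), and the third control rat and the fourth 1% rat almost met. Cyp27a1, an enzyme of the acidic route, differed by 0.40 log2, the bile salt pump gene Abcb11 by 0.22 and the uptake carrier gene Slco1a4 by 1.06. Cyp7a1, the rate-limiting enzyme of the classic route, differed by 0.31 log2 and Cyp8b1 by −0.16.

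Fatty acid breakdown showed 1 change. Hacl1, a lyase of peroxisomal alpha-oxidation, read 8.98, 8.76, 9.39 and 9.34 in control rats and 10.93, 11.25, 10.29 and 10.49 in 1% rats. It rose by 1.62 ± 0.35 log2 (adjusted p = 0.0491), and it passed in none of the 8 fits that left out 1 array. The 0.1% rats lay across the gap at 8.97 to 10.80. None of the 14 varying genes of mitochondrial fatty acid oxidation and ketogenesis passed, and the median was 0.02 log2 and turned to −0.06 with the Gapdh covariate. Cpt1a, which gates fatty acid entry into mitochondria, differed by 0.64 log2, Pdk4 by −0.71, and the peroxisomal gene Ehhadh by −0.40.

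In sugar metabolism, 16 of 19 varying glycolysis, fructose and glycogen genes were lower, with a median of −0.17 log2 and none passing. The triose phosphate isomerase gene Tpi1 was at 10.72 to 11.20 in control rats and at 10.52 to 10.60 in 1% rats, a difference of −0.37 log2. The glucose 6-phosphate carrier gene Slc37a4 differed by 0.40 log2 and Pck1, a key gene of gluconeogenesis, by 0.57.

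Genes on the list for the cell cycle and DNA replication were mostly lower. This list pools genes of division with growth arrest genes such as Cdkn1a, Cdkn1b, Gadd45a and Btg1. Ccnb1, a mitotic cyclin, read 7.04, 7.23, 6.92 and 6.93 in control rats and 6.59, 6.63, 6.69 and 6.48 in 1% rats, and it fell by 0.43 log2 (adjusted p = 0.0485). Of 20 varying genes on the cell cycle and DNA replication list, 16 were lower, 9 of them at an unadjusted p under 0.05, against 9.52% of varying genes. Ccna2, Cdkn3 and Cdk1 differed by −0.77, −1.05 and −1.11 log2 without overlap and did not pass. Cdk1 was at 6.81 to 8.28 in control rats and at 5.99 to 6.59 in 1% rats, and at 6.30 to 7.13 in 0.1% rats. The values of Ccnb1 and Cdk1 in 1% rats lay near or below the median of the whole table, 6.59, and may not be above background. Array means over the list were 7.83 to 8.20 in control rats and 7.63 to 7.84 in 1% rats.

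The CCAAT box, a site of many cell cycle and sterol gene promoters, was in 13 of 17 cell cycle windows (76.5%) and in 10 of 13 sterol pathway windows (76.9%), against 37.7% of all windows. The windows of Ccnb1 at chr2:33655176-33655475 and of the sterol gene Fdps at chr2:176804767-176805066, both on the minus strand, are shown because each holds 2 matches. The boxes, in capitals, start at −82 and −50 in Ccnb1 and at −130 and −85 in Fdps, where 1 of them reads as its reverse complement. The lists were chosen by function, and no match was tied to a difference in level. The cell cycle windows with a CCAAT box include those of the growth arrest genes Cdkn1b, Gadd45a and Gadd45b. Several other motifs were searched in these lists, and CCAAT was picked for display. The sterol element TCACNCCAC was in 0 of the 13 sterol windows, against 1.13% of all windows. The cell cycle element TTTGAA was in 6 of the 17 cell cycle windows (35.3%), against 18.1%. CCAAT was also in 16 of the 31 windows of genes that changed (51.6%).
Ccnb1: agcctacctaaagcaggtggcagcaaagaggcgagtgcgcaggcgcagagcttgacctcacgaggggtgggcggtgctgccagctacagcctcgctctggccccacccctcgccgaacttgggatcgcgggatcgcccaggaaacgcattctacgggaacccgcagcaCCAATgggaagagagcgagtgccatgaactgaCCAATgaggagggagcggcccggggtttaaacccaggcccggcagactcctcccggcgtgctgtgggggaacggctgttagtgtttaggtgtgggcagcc
Fdps: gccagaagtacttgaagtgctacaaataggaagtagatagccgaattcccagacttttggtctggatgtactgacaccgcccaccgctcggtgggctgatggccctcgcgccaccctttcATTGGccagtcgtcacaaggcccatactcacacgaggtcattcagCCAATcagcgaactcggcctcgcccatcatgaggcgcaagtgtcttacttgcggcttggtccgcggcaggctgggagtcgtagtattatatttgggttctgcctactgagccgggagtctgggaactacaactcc

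Genes of protein synthesis and breakdown were lower by small amounts. All 14 varying genes of the proteasome list were lower, with a median of −0.14 log2, and with the Gapdh covariate the median was 0.01. Psmc6, an ATPase of the proteasome cap, fell by 0.30 log2, from 7.86 to 7.98 in control rats to 7.53 to 7.72 in 1% rats (adjusted p = 0.0486). Its 2 brighter probe sets, at 9.46 and 9.51, were unmeasured. Of 24 varying cytosolic ribosomal protein genes, 23 were lower, with a median of −0.10 log2. All 18 varying mitochondrial ribosomal protein genes were lower, with a median of −0.20, which was −0.05 with the Gapdh covariate. All 9 varying ribosome biogenesis genes were lower, with a median of −0.21 log2. Rrs1, which assembles the large subunit, read 8.78, 8.13, 7.99 and 8.66 in control rats and 7.62, 7.91, 7.45 and 7.61 in 1% rats, with no overlap and no pass. None of the members of these 3 ribosome groups passed. Beyond this covariate, the part of RNA integrity in these differences was not tested.

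Birc2, a ubiquitin ligase that blocks cell death, read 8.95, 8.97, 9.02 and 9.22 in control rats and 8.71, 8.05, 8.08 and 8.00 in 1% rats. It fell by 0.83 ± 0.14 log2 (adjusted p = 0.0274), and the first 1% rat was closest to control. The cell death activator gene Bcl2l11 differed by 1.05 log2 with no overlap and did not pass. Shld2, of the shieldin complex in DNA break repair, rose by 0.69 log2, from a control range of 7.74 to 7.87 to 8.18 to 8.90. Hsp90ab1, a cytosolic chaperone and the brightest of the named calls, fell by 0.59 log2 from 10.95 to 11.30 in control rats to 10.35 to 10.74 (adjusted p = 0.0472), and a second probe set differed by −0.36. Sh3bp5, an exchange factor for RAB11, rose by 1.17 log2. The lysosomal trafficking gene Lyst fell by 0.37 log2, while 12 of 17 varying autophagy and lysosome genes were higher and none passed.

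Oxidant defence genes were lower in 12 of 13 varying cases, with a median of −0.20 log2 and no pass. The master factor gene Nfe2l2 was at 10.31 to 10.96 in control rats and at 9.32 to 10.31 in 1% rats, a difference of −0.69 log2. Srxn1, Gclc and Nqo1, whose products repair peroxiredoxins, make glutathione and reduce quinones, differed by −0.78, −0.80 and −0.98 log2. The first control rat was the highest in Srxn1, at 9.16. Cisd2, an iron-sulfur protein of the mitochondrial outer membrane, read 8.65, 8.47, 8.59 and 8.57 in control rats and 8.01, 7.22, 7.52 and 7.47 in 1% rats. It fell by 1.02 log2 (adjusted p = 0.0372), and its brighter probe set differed by −0.14.

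Of the secreted proteins, Masp1, a protease of the complement lectin pathway, read 9.22, 9.43, 9.26 and 9.17 in control rats and 9.90, 9.82, 9.76 and 9.73 in 1% rats. It rose by 0.53 ± 0.10 log2 (adjusted p = 0.0375) and was at 9.12 to 9.61 in 0.1% rats. It was the only one of 27 varying complement and coagulation genes to pass, where 1.17% of all varying genes passed. Of the 27, 22 were higher, and the median was 0.04 log2. The interleukin 6 receptor genes Il6r and Il6st differed by 1.30 and 0.47 log2 with no overlap and did not pass. The acute phase genes Hp, Crp and Orm1 differed by 0.02, −0.17 and −0.17 log2.

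The remaining named changes were Hycc2, Rsrp1, Aopep, Zfp68, Krcc1 and Cystm1. Hycc2, whose protein joins a complex that makes a plasma membrane phosphoinositide, read 8.78, 8.56, 8.67 and 8.61 in control rats and 9.95, 9.45, 9.39 and 9.69 in 1% rats. It rose by 0.97 ± 0.12 log2 (adjusted p = 0.0096), and the 0.1% rats were within the 1% range or just below it at 9.29 to 9.55. Rsrp1 fell by 1.73 log2, from 8.43, 7.99, 8.87 and 8.50 to 6.67, 6.80, 6.67 and 6.75, and its brighter probe set differed by −0.56. Aopep, an aminopeptidase, rose by 0.53 log2. Zfp68, Krcc1 and Cystm1 fell by 0.49, 0.47 and 0.87 log2.

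Probe sets without a symbol included the 2 smallest adjusted p-values of the comparison. Probe set 1391407_at read 9.38, 8.66, 9.33 and 9.10 in control rats and 6.37, 6.76, 6.59 and 6.54 in 1% rats, with 0.1% rats between at 6.88 to 8.07. It fell by 2.55 ± 0.23 log2 (adjusted p = 0.00138). Probe set 1391718_at fell by 2.26 log2 (adjusted p = 0.00172). Probe set 1377516_at rose by 1.67 log2 to 7.66 to 8.23, while 0.1% rats stayed at 6.14 to 6.90. Probe set 1380306_at had the second largest rise, 4.65 log2, but it passed in only 1 of the 8 fits that left out 1 control or 1% array. Its control mean of 5.855 and that of 1377516_at, 6.25, lay below the median of the whole table, 6.59. The 1% means of 1391407_at and 1391718_at, 6.56 and 6.43, lay below it too. Such levels may not be above background.

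Other probe sets of the named genes did not always follow. The 34 genes had 11 further varying probe sets, none of which passed, and 33 unmeasured ones spread over 21 genes. Across all varying genes, 232 had several varying probe sets, and all had 1 sign in 181 of them. Where 1 of them reached an unadjusted p under 0.05, this was 70 of 74 genes.

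**Figure D4:**
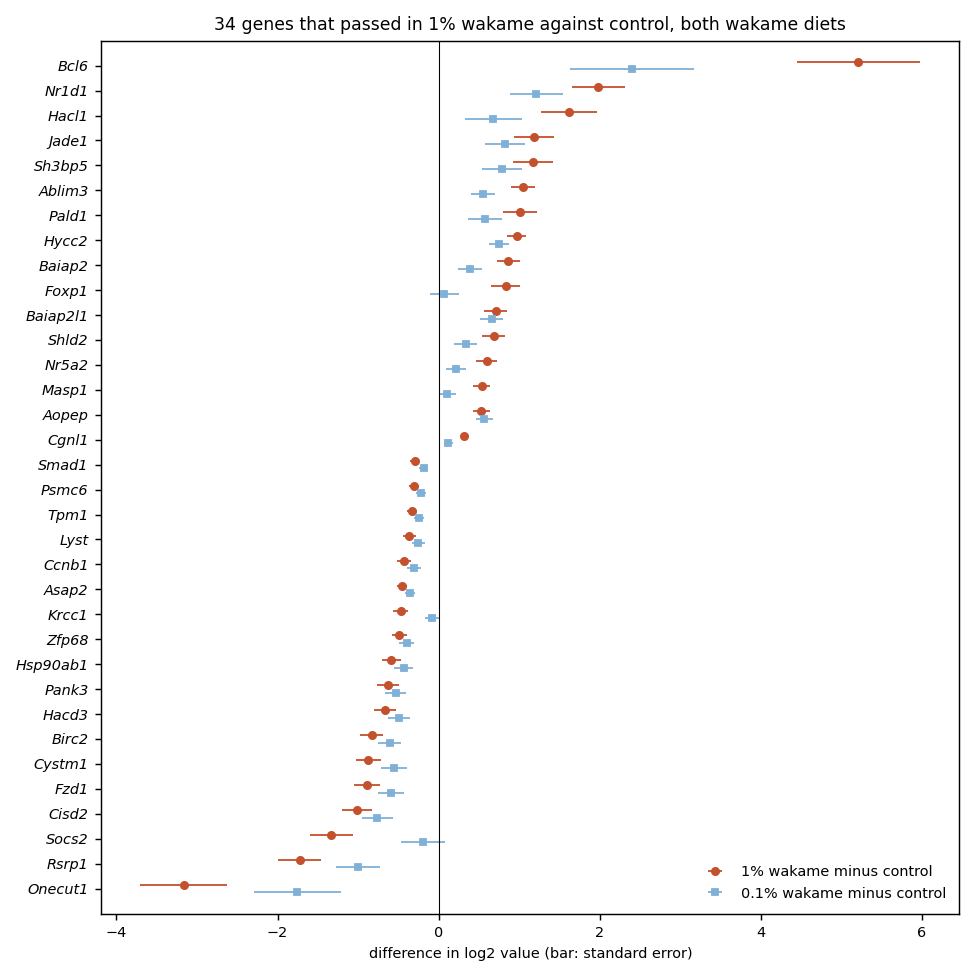
Differences from the control diet (log2, bars are standard errors) for the 34 named genes that passed in the 1% group, with the 0.1% group beside it. Both series use the same control rats. The 0.1% value is nearer 0 than the 1% value in all of these genes except Aopep, and it is −0.08 for Krcc1 and 0.07 for Foxp1. The genes were chosen by their 1% difference, which favours larger 1% values, so this order is no test of dose.

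Against the 0.1% diet, no probe set passed in the 1% group by limma, and 219 (6.76%) had an unadjusted p under 0.05. The lowest adjusted p was 0.246. Leaving out the first 0.1% rat gave 1 call. Without the filter on unmeasured probe sets there were 6 calls. The 2 comparisons with control share their control rats, so their values are only set side by side. Socs2 differed from control by −1.33 log2 in 1% rats and by −0.19 in 0.1% rats, and Masp1 by 0.53 and 0.11. Aopep differed by 0.53 and 0.57 log2, and Pank3 by −0.63 and −0.53. Of the 54 probe sets that passed, 2 also passed in 0.1% rats, and both lack a symbol.

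Markers of the cell types of liver gave no call in any of 9 lists, where 1.17% of all varying genes passed. With so few varying markers, the lack of a call says little about the make-up of the tissue. Of 11 hepatocyte markers on the array 6 varied, and their array means were 11.82 to 12.15 in control rats and 11.70 to 12.25 in 1% rats. Of 10 Kupffer cell and macrophage markers 7 varied, at 8.76 to 9.45 and 8.83 to 9.33. Of 14 stellate cell and fibroblast markers 5 varied, all higher, at 8.22 to 8.58 and 8.24 to 8.81, the largest being Lum with 0.65 log2. Of 9 endothelial markers 2 varied, of 5 erythroid markers 3, and of the cholangiocyte, lymphocyte, neutrophil and other tissue lists 1 each, so these types were hardly measured.

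**Figure D5:**
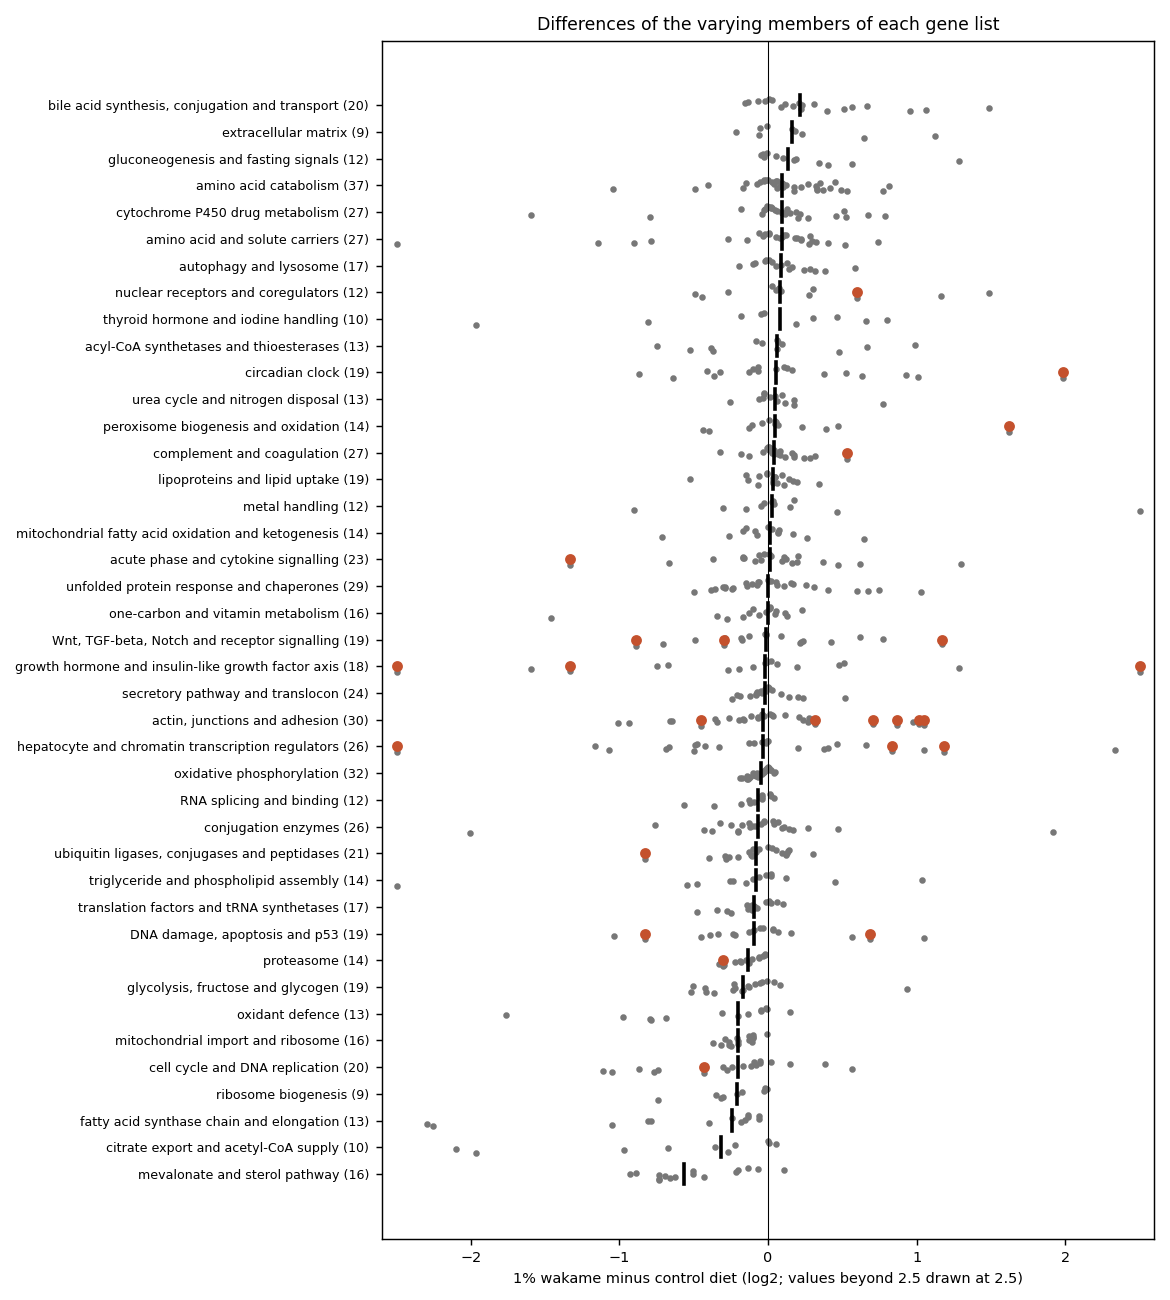
Differences between 1% wakame and control diet (log2) for the varying members of gene lists with 9 or more, 1 point per gene, sorted by the list's median (black bar). Red points passed at an adjusted p under 0.05, and values beyond 2.5 are drawn at 2.5. The sterol list has the lowest median, −0.56, and the bile acid list the highest, 0.22.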

How the data were processed

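Liver RNA of 12 rats was measured, 100 ng per array, per the labels' protocols. The authors deposited 1 table of log2 values; the scale was inferred from the values (3.15 to 14.6). The submitters' processing notes list R 2.7.2, and sources used here do not give the normalization or summarisation. The 57 manufacturer's controls and probe sets with an SD of 0.01 log2 or less were left out.

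Diet means were fitted to all 12 arrays with limma 3.58.1 (lmFit, eBayes with a trend) in R 4.3.3, with Benjamini-Hochberg adjustment over 3240 probe sets and a threshold of 0.05. Rose, fell and changed refer to this threshold, and ± is a standard error unless SD is given. P-values measure the spread between these rats, and precision is limited by 4 arrays per diet. The fit was tested only on simulated independent normal values, which carried no cage or RNA integrity effects. The comparison, the SD limit, 42 gene lists and 54 symbol families were chosen with earlier results of these data known. A gene counts once in a list, by its varying probe set with the highest mean. Named are every gene that passed, up to 4 members per list by smallest p, and the 10 largest rises and falls without overlap that did not pass; other members were named after their values were seen. Promoters come from RefSeq (GRCr8), the first window per gene. Same-numbered arrays did not deviate together, so numbers were not used as pairs. Alternatives changed the SD limit, variance model, normalization, probe sets, covariates and arrays.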

Additional observations from a re-analysis of the deposited data

Results flagged for a closer look

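Among 108 groups of 4 rats screened for a rat far from its group, 8 were marked, where chance marks about 1 in 20 groups. In Onecut1, the fourth control rat was the highest at 12.23. In Sh3bp5, the third 1% rat was the lowest of its diet at 10.09, and in Hacd3 it was the highest at 7.95. The first 1% rat was the highest of its diet in Birc2 at 8.707 and in Pank3 at 7.124, and the fourth was the highest in Krcc1 at 8.587. The second control rat was the lowest in Tpm1 at 7.09 and the highest in Commd6, which did not pass, at 9.867. In all of these the marked 1% rats stood on the side of the control diet.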

How the results depend on the processing

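The count of 54 changed probe sets was 9 without the filter on unmeasured probe sets, 29 with robust variance moderation, 28 with only the 8 arrays compared, 2 without the dimmer probe sets, 10 with 1 probe set per gene and 4 with the Gapdh covariate. It ranged from 7 to 49 when 1 array was left out, where the 4 fits without a 0.1% array were added after seeing the data. With a replicate block it was 12; not every array correlated best with its own number, so the numbers are not taken as pairs. It stayed between 41 and 56 with SD limits of 0.05 and 0.1, no variance trend, quantile normalization, centring and array weights. Against 0.1% wakame the count of 0 became 6 without the filter, and it ranged from 0 to 1 when 1 array was left out. The cause of these shifts was not tested. Over 684 refits of the probe sets of named genes that passed, none turned its sign and 401 no longer passed. The median of all varying genes, −0.02 log2, was 0.01 after quantile normalization and 0.005 after centring, which bears on the lists near 0: the secretory, Wnt, growth hormone and actin lists, among others, change sign in 1 or more of these.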

Other observations

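Genes of metal and stress handling and of drug metabolism showed large differences that did not pass. Mt2A, a metallothionein that binds zinc and copper, was at 7.04, 5.43, 9.97 and 6.75 in control rats and at 11.40, 12.09, 10.64 and 9.72 in 1% rats, a difference of 3.67 log2. The third control rat lay above the fourth 1% rat. Mt1 differed by 0.47 log2 with no overlap. The transferrin receptor gene Tfrc differed by −0.90 log2. In the stress response of the endoplasmic reticulum, Herpud1 and Dnajb9 differed by 1.03 and 0.67 log2 and Atf4 by −0.49, while Hspa5, the main chaperone there, differed by 0.15. Of 27 varying P450 drug metabolism genes, 20 were higher and 7 lower, with a median of 0.09 log2. Gsta3, a glutathione transferase, differed by −2.01 log2. It read 10.23, 6.755, 6.636 and 7.57 in control rats, so the first control rat stood far above the others. Its 1% values, 5.49 to 6.09, lay below the median of the whole table, 6.59, and may not be above background.

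Of 37 varying amino acid catabolism genes, 27 were higher, where 45.2% of all varying genes were, with a median of 0.10 log2. At an unadjusted p under 0.05, 6 were higher, where 8.3% of all varying genes were, and none lower. Of 27 varying genes on the amino acid and solute carrier list, 18 were higher and 9 lower. Their median was 0.09 log2 and their mean −0.08, and the median was −0.01 with the Gapdh covariate. Glul, which makes glutamine, was at 9.25 to 10.34 in control rats and at 10.36 to 10.68 in 1% rats. Slc16a12, a carrier of creatine, was at 9.11 to 9.51 in control rats and at 9.72 to 9.92 in 1% rats. Slc25a30, a mitochondrial carrier, differed by −3.03 log2 on its brighter probe set and by −1.46 on another. Hsd17b2, which inactivates sex steroids, was at 8.18 to 10.05 in control rats and at 10.91 to 11.73 in 1% rats, a difference of 2.01 log2 that did not pass.

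The remaining genes among the largest differences without overlap did not pass either. Spink1, a trypsin inhibitor, differed by 1.22 log2 and Mtss1, which binds actin and membranes, by 1.06. Pim3, a serine/threonine kinase, differed by 1.00 log2. On the lower side, Osgin1, a gene of the oxidative stress response, differed by −1.49 log2 and Cavin3, a component of caveolae, by −1.22. Commd6 and Rtp3 differed by −1.21 and −1.12 log2. Me1 and Fasn had dimmer probe sets with larger differences than those used in the lists, −2.91 and −2.78 log2.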
